A study of Drosophila melanogaster with 2 samples.

Results

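Non-coding RNA (ncRNA) promoter peaks are here peaks from chromatin immunoprecipitation of the zinc-finger protein Odd skipped (Odd), chosen by place. Their summit lay within 500 bp of the transcription start site (TSS) of a gene of biotype ncRNA. It lay more than 500 bp from every protein-coding TSS, in the Ensembl annotation of the dm6 genome. The rule used positions and no binding strength, and it took 741 of the 30000 peaks of the pooled list. By its name this list holds peaks and background, so a member is a called region and not an established binding site of Odd. Of these 741, 110 were also in the list of 4291 peaks kept by the irreproducible discovery rate (IDR), a filter for peaks that rank alike in the replicates. Odd was precipitated with an anti-GFP antibody from whole embryos of both sexes, 0 to 16 h old, of a transgenic fly line in which Odd carries eGFP at its C terminus. All material is of this 1 genotype and 1 age window, in 2 biological replicates, with sonicated fragments of 200 to 800 bp. The labels give no untagged or mutant embryos, and they do not say whether the line also has untagged Odd. A whole embryo mixes all cell types and stages of the window, so a strong site in few cells and a weak site in many cannot be told apart. With 1 group no test between conditions exists, and the shares below are given with exact 95% binomial intervals that cover counting error only.

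Odd is a repressor of the pair-rule class, known for its part in laying down the segments of the early embryo, and it is used again later in other tissues. Many ncRNA genes have promoters of their own: host genes release miRNAs or small nucleolar RNAs (snoRNAs) from a longer transcript, and long ncRNAs such as roX1 and roX2 act as RNAs on chromatin. Other ncRNA genes lie inside protein-coding genes, on the same or on the opposite strand. For entries that are a miRNA hairpin or a mature miRNA, the annotated TSS is the 5′ end of the small RNA and not the start of its primary transcript.

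The 201 bp around a summit are shown for 8 members, plus strand, 5′ to 3′, read from the dm6 genome. They were chosen to span the strongest site, a miRNA host, 2 AT-rich sites, the well-known RNAs Hsromega, flam and roX2, and the only IDR member with the word of Odd. Capitals mark TATAAA (the TATA box), GAGAG (bound by GAGA factor), CGATA (bound by BEAF-32), GGTCACAC (bound by M1BP) and ACAGTAGC (the Odd word), in either direction. The windows are chr2L:14023990-14024190 for CR31840, chr3R:29214333-29214533 for CR31044, chr3R:17700460-17700660 for CR46036, chrX:9687648-9687848 for CR42657, chr3R:21296275-21296475 for Hsromega, chrX:21631587-21631787 for flam, chrX:11579045-11579245 for roX2 and chr2L:14456927-14457127 for CR44730.
CR31840: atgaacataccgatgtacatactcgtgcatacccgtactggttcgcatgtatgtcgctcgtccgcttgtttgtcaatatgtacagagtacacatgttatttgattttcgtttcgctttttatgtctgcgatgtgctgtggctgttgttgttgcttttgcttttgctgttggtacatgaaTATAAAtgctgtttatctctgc
CR31044: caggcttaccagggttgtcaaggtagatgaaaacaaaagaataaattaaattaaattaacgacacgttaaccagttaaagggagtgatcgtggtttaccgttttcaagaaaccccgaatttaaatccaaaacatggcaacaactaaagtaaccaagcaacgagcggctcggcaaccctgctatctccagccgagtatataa
CR46036: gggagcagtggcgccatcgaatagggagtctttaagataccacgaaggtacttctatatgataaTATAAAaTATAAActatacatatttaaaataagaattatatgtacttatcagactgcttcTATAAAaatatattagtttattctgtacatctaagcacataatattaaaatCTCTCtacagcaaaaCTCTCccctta
CR42657: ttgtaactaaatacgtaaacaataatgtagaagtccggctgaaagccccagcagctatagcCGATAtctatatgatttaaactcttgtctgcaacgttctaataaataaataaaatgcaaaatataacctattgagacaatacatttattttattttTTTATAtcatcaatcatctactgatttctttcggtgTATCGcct
Hsromega: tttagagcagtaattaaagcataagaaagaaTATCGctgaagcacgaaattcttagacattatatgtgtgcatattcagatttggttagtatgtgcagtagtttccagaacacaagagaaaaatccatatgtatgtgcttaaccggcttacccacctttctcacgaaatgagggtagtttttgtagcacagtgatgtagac
flam: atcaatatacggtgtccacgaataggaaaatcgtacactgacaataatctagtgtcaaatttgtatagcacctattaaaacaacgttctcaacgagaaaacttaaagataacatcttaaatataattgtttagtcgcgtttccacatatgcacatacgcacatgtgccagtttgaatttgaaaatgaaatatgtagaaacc
roX2: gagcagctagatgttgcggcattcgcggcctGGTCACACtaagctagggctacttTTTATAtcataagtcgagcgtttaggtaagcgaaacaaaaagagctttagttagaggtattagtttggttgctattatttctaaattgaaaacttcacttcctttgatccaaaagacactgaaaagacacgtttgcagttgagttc
CR44730: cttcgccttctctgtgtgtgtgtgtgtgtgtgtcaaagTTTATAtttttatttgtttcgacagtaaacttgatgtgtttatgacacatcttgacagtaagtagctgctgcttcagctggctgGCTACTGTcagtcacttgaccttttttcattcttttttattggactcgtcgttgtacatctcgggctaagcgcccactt
The CR46036 window has 3 TATAAA and 2 GAGAG words, while the windows of CR31044 and flam have none of the marked words. The roX2 window holds a TATAAA and an M1BP word.

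The signal value, the deposited score of a peak's strength, grows with depth, which is unknown here, so peaks were compared by rank: it ranked the peaks of each list, with rank 1 the strongest. The IDR list held exactly the 4291 strongest peaks of the pooled list, so membership of it and pooled rank are here 1 measure. The strongest ncRNA promoter peak was at CR31840, a long ncRNA of unknown role 2911 bp from the protein-coding gene hll. Its summit lay 9 bp inside the transcript and had rank 8 of all 30000 peaks, with rank 13 in replicate 1 and rank 7 in replicate 2. Its signal value was 1771 in the pool, 847 in replicate 1 and 929.9 in replicate 2. A second IDR summit of the same pooled peak, 193 bp upstream of the TSS, had rank 1317 in the pool. CR45352, in the same stretch between protein-coding genes, had an IDR summit of rank 442 in the pool, 457 in replicate 1 and 447 in replicate 2.

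CR44339 (summit chr2R:12985216), an intergenic long ncRNA 4222 bp from Psc, which encodes a Polycomb group protein, had rank 12 in the pool, 12 in replicate 1 and 11 in replicate 2, with the summit 151 bp upstream of its TSS. CR46036, on the opposite strand within an intron of osa, which encodes a subunit of the Brahma chromatin remodeller, had rank 55 in the pool, 67 in replicate 1 and 44 in replicate 2. The antisense RNA CR44429 (summit chrX:15298467), in an intron of gce, which encodes a juvenile hormone receptor, had rank 81 in the pool, 88 in replicate 1 and 76 in replicate 2. These ranks lay close together in the pool and in both replicates. CR44429 lay 542 bp from the TSS of gce, and CR42657 lay 682 bp from that of nej, which encodes the CBP acetyltransferase, so both were near the limit of the rule on the protein-coding side. CR42657 had rank 104 in the pool, 97 in replicate 1 and 109 in replicate 2.

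CR44867 and CR44868, both among the 15 strongest members, lie in the same intron of beat-Ib, a gene of the beaten path family of axon guidance proteins, and on its opposite strand. CR44867 (summit chr2L:15911274) had rank 168 in the pool, 124 in replicate 1 and 210 in replicate 2. CR44868 (summit chr2L:15912131) had rank 288 in the pool, 290 in replicate 1 and 298 in replicate 2. Of the other top genes, CR44810 near slbo, which encodes the C/EBP factor of border cells, had pooled rank 233, and CR45541 near Hex-A, which encodes a hexokinase, had pooled rank 327. The last 3 of the 15, CR45251, CR44676 and CR45365, had pooled ranks of 336, 343 and 426. Their nearest protein-coding TSSs, of CG6163, CG9300 and CG32986, lay 15468, 8427 and 10347 bp from the summits. All 15 are in the IDR list by their pooled rank, and they lay within rank 554 in replicate 1 and rank 410 in replicate 2. The pool holds both replicates, so the replicate ranks are not independent of the choice of the 15.

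**Figure D1:**
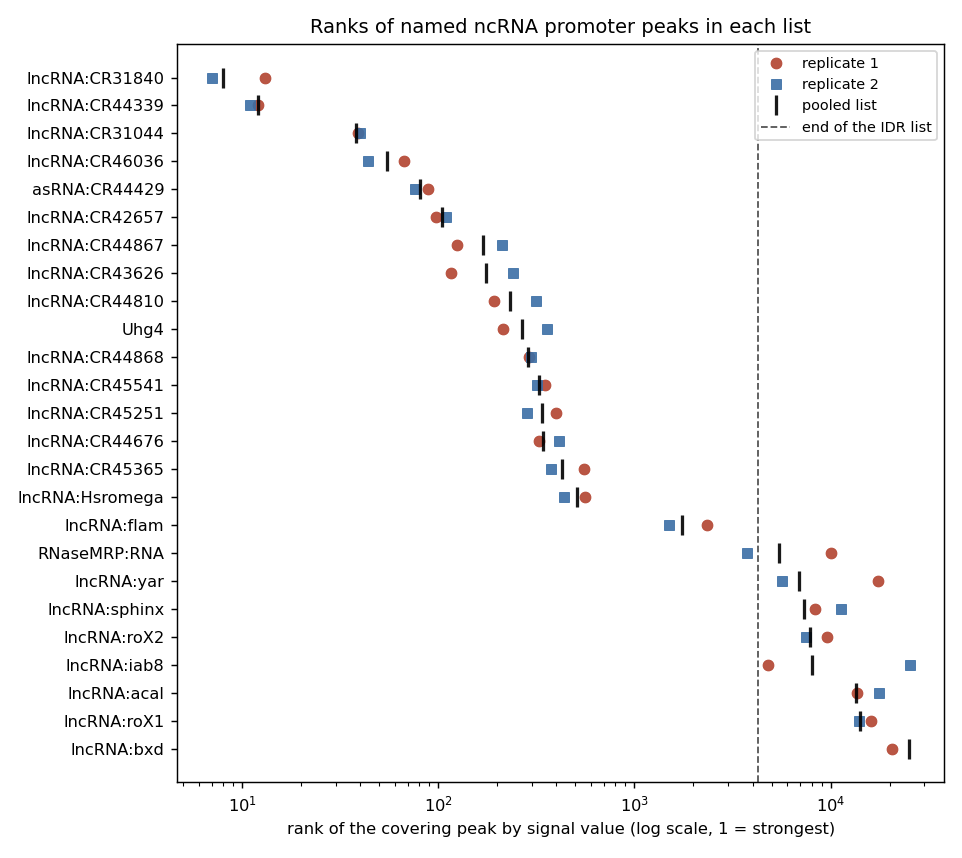
Rank by signal value (log scale, 1 is the strongest) of the peak that covers each named summit, for the 15 strongest ncRNA promoter peaks and the best member of each well-known RNA that has one. Circles are replicate 1, squares replicate 2 and vertical ticks the pooled list; the dashed line is the end of the IDR list at 4291. The ticks of the 15 strongest members, Hsromega and flam lie left of the line, those of the others right of it, and bxd has no square because no peak of replicate 2 covers its summit.

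Of the 15 strongest members, 3 were at genes that hold small RNAs in their span. Of 37 ncRNA genes that hold a miRNA hairpin on their own strand, 23 (62.2%, interval 44.8 to 77.5%) had a member and 6 (16.2%, interval 6.19 to 32.0%) an IDR member, and of 10 genes that hold a snoRNA, 1 had a member, which was in the IDR list. Over all 3261 ncRNA genes of the 6 chromosome arms with peaks, 675 (20.7%, interval 19.3 to 22.1%) had a member and 117 (3.59%, interval 2.98 to 4.28%) an IDR member. The miRNA hosts are longer than ncRNA genes at large (median 6436 bp against 558 bp), and 14 of the 37 have several annotated TSSs, against 129 of the 3261. Among ncRNA genes, 2723 have a TSS over 500 bp from every protein-coding TSS, and at the rest the rule can bar a summit near the TSS. The part of length, TSS number and this bar in the shares was not tested. The strongest was CR31044, host of mir-279 and mir-996, a related pair known for repressing targets in sensory neurons, with rank 38 in the pool, 39 in replicate 1 and 40 in replicate 2 at a summit 129 bp upstream of its TSS. The mir-279 hairpin itself, within CR31044, had a weaker IDR summit 239 bp upstream of the 5′ end of the hairpin, of rank 3971. CR43626, host of mir-282, had 3 members, of which 2 were in the IDR list, and the stronger had rank 175 in the pool, 116 in replicate 1 and 239 in replicate 2.

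The snoRNA host Uhg4 (summit chr2R:9095229), with 7 snoRNAs that guide the modification of other RNAs, had its summit 44 bp upstream of its TSS, at rank 268 in the pool, 213 in replicate 1 and 359 in replicate 2. Its neighbour Boot has a TSS 571 bp from the summit. CR43651, host of mir-14, a miRNA known for limiting cell death, had rank 809 in the pool, 916 in replicate 1 and 669 in replicate 2. The hosts of mir-8 (CR43650, pooled rank 1746) and mir-276a (CR46006, pooled rank 2894) completed the 7 hosts with IDR members, along with Hsromega, which holds mir-4951. Of the hosts whose members were all outside the IDR list, that of mir-bft (CR43314, best rank 4377) had the strongest summit. Others, not all named here, were the hosts of bantam, a promoter of growth (CR43334, best rank 5232), and mir-10, which lies among the Hox genes (CR42651, best rank 4613). Further ones were those of mir-34 and mir-277 (CR43459, best rank 6157), mir-184 (CR44206, best rank 11775) and mir-9a (CR45916, rank 16631). Weaker still were those of mir-1, the muscle miRNA (CR45361, best rank 22133), and mir-124, the neuronal miRNA (CR45919, rank 22500). The host of let-7, mir-100 and mir-125, let7C, had no summit within 500 bp of its TSS. By summit, 8 of 39 members at hosts were in the IDR list (20.5%, interval 9.30 to 36.5%) against 102 of 702 at other genes (14.5%, interval 12.0 to 17.4%), and these intervals overlap.

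Of 25 well-known RNA genes looked for by name, 23 had the biotype ncRNA; these include snoRNA hosts, other structural RNAs and a miRNA hairpin as well as long ncRNAs. Of the 23, 11 had a member (47.8%, interval 26.8 to 69.4%) and 3 had one in the IDR list (13.0%, interval 2.78 to 33.6%). These 3 were Uhg4, Hsromega and flam. Over all ncRNA genes the shares were 20.7% and 3.59%. The rule bars summits near protein-coding TSSs, and the part of this in these shares was not tested. Hsromega, the heat shock RNA that organises nuclear speckles, had its summit 246 bp upstream of the nearest of its TSSs but inside the span of the gene, at rank 507 in the pool, 558 in replicate 1 and 437 in replicate 2. The gene flam, the piRNA cluster that silences retrotransposons in cells around the germ line, had 2 summits. The better lay 204 bp upstream of the TSS, at rank 1754 in the pool, 2353 in replicate 1 and 1500 in replicate 2. The other, 4 bp from the TSS, had rank 20637 in the pool and was outside the IDR list. Both replicates placed the summit of Hsromega and the better summit of flam within the strongest 2353 peaks.

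The RNAs of dosage compensation, roX1 and roX2, which guide the male-specific lethal complex to the X chromosome, had members outside the IDR list. The roX2 summit lay 80 bp inside the transcript, at rank 7903 in the pool, 9645 in replicate 1 and 7511 in replicate 2. The roX1 summit lay 6 bp inside it, at rank 14130 in the pool, 16018 in replicate 1 and 14025 in replicate 2. The RNAs of the bithorax complex, which holds Hox genes of the abdomen, were likewise outside the IDR list. The iab8 summit had rank 8013 in the pool, 4805 in replicate 1 and 25300 in replicate 2, while the bxd summit had rank 24995 in the pool and 20618 in replicate 1 and was covered by no peak of replicate 2. The better of the 2 summits of iab4, the host of mir-iab-4, had rank 12224 in the pool, 13499 in replicate 1 and 9908 in replicate 2. The replicates thus differed widely for iab8 and bxd and little for this summit of iab4.

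For yar, which lies between yellow and the achaete-scute genes, the rank was 6869 in the pool, 17442 in replicate 1 and 5644 in replicate 2. RNaseMRP:RNA, the RNA of a ribonuclease that processes ribosomal RNA, had 2 summits, the better at rank 5476 in the pool, 10041 in replicate 1 and 3755 in replicate 2. The better of the 2 summits of acal had rank 13494 in the pool, and sphinx, on chromosome 4, had rank 7280. The replicate ranks of iab8, yar and RNaseMRP:RNA spread far more widely than those of the strongest members. No member was found at 12 of the 23 genes: both 7SL genes (CR32864 and CR42652, the RNA of the signal recognition particle), RNaseP:RNA, CRG, the hairpin mir-bft, let7C, and the snoRNA hosts Uhg1, Uhg2, Uhg3, Uhg5, Uhg7 and Uhg8. For Uhg2, Uhg5 and Uhg8 the summits within 500 bp of the TSS were also within 500 bp of a protein-coding TSS (Bka, CG12863 and CG5199) and did not qualify.

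Long ncRNAs made up 619 of the 741 members, at 494 genes, and 91 of these summits were in the IDR list (14.7%). Antisense RNAs had 75 members, of which 11 were in the IDR list (14.7%). After CR44429, the antisense RNAs with the strongest summits were CR45908 in CG1943 (rank 1000), CR45999 near CG34112 (rank 1017) and CR43469 near bic, which encodes a nascent-chain factor (rank 1134). The 18 members at miRNA hairpins included 4 IDR summits (22.2%, interval 6.41 to 47.6%), 2 at mir-9378 and 1 each at mir-279 and mir-2491. The strongest was at mir-9378 in an intron of CG17124, of rank 434 in the pool, 573 in replicate 1 and 357 in replicate 2. The 19 members at mature miRNA entries included 3 IDR summits, at products of mir-9377 in Tis11, mir-4962 in Tlk and mir-4974 in CG8671. These 3 small RNAs and mir-9378 lie on the same strand as the protein-coding gene around them. The remaining 10 members were at other ncRNA genes, of which 1, at Uhg4, was in the IDR list.

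In all, 11 ncRNA genes had 3 or more members at their TSSs. CR44206 and CR44810 had 4 each, and CR43626, CR43928, CR43650, CR44161, CR44677, CR45241, CR45361, CR45553 and CR43334 had 3 each. Of the 11, 4 had any in the IDR list: CR43626 with 2, and CR44810, CR43650 and CR43928 with 1 each. Among all 675 ncRNA genes with a member, 117 had one in the IDR list. The part of the number of summits per gene in these counts was not tested. At CR44810 the best summit had rank 233 and the weakest 25157, a wide spread, while the 3 summits of CR45361 all had ranks between 22133 and 23291. CR43928 lies near Thor, which encodes the translation inhibitor 4E-BP, and its summits had ranks of 3016 to 6605.

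By the background, summits at ncRNA promoters were in the IDR list about as often as peaks at large, less often than those at protein-coding promoters and more often than those away from both. The share was 110 of 741 (14.8%, interval 12.4 to 17.6%), against 14.3% of all 30000 peaks, 1841 of 7309 summits at protein-coding TSSs (25.2%, interval 24.2 to 26.2%) and 2340 of 21950 summits away from both kinds of TSS (10.7%, interval 10.3 to 11.1%). The intervals of these 3 sets do not overlap. The list of 1 replicate has no IDR filter, so its strongest 4291 peaks stood in for the IDR list there. By that measure the order of the 3 shares was the same in either replicate alone. They were 15.9%, 25.1% and 10.2% in replicate 2, and 15.2%, 24.9% and 10.8% in replicate 1. The median rank was 14946 for ncRNA promoter summits, 9927 at protein-coding TSSs, 16561.5 away from both and 15000.5 over all peaks. Within the IDR list the 110 ncRNA promoter summits had a median rank of 1703.5, against 1930 at protein-coding TSSs, 2312.5 away from both and 2146 for the whole IDR list. No interval was computed for these medians, and the ranks of the 110 ran from 8 to 4257. Of the strongest 100 peaks 5 were ncRNA promoter summits, and of the strongest 1000 peaks 33 were (3.30%). Of the whole 4291, 110 were (2.56%), and of all 30000 peaks, 741 were. The pooled signal value of the 110 ran from 145.3 through a median of 251.5 to 1771, and that of all 741 from 34.3 through 61.0 to 1771. At the end of the IDR list the weakest member was CR45354, with a signal value of 145.3, and the strongest member outside it was CR45539, with 143.3.

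Distance from protein-coding genes moved with these shares. Summits away from both kinds of TSS were in the IDR list less often the farther they lay from a protein-coding TSS: 15.05% at 500 to 1000 bp, 12.8% at 1000 to 2000 bp, 10.9% at 2000 to 5000 bp and 8.46% beyond. The ncRNA promoter summits gave 17.8% (16 of 90), 14.8% (23 of 155), 18.5% (40 of 216) and 11.1% (31 of 280) over the same distances. Only at 2000 to 5000 bp did the intervals of the 2 sets not overlap (13.6 to 24.4% for ncRNA promoters, 10.2 to 11.8% for summits away from both). Some strong members lie close to other strong peaks: 31 of the 110 IDR members had another IDR summit within 1000 bp, as had 976 of the 4291 IDR peaks.

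**Figure D2:**
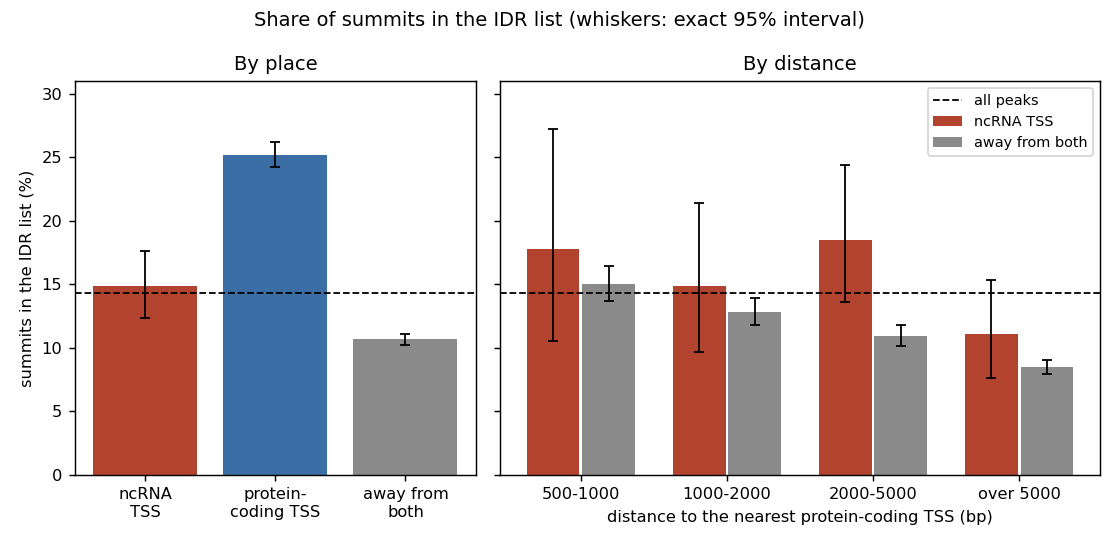
Share of pooled summits that are in the IDR list, in percent, with exact 95% intervals as whiskers; the dashed line is all peaks, 14.3%. The left panel sets 741 ncRNA promoter summits beside 7309 at protein-coding TSSs and 21950 away from both (14.8%, 25.2% and 10.7%); the right panel splits the ncRNA promoter summits and those away from both by distance to the nearest protein-coding TSS, where ncRNA promoters are above in each of 4 bins but with wide whiskers.

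In position, summits of ncRNA promoters were spread more evenly around the TSS than those of protein-coding promoters. Within 200 bp of the TSS lay 324 of 741 ncRNA promoter summits (43.7%, interval 40.1 to 47.4%), against 4504 of 7309 protein-coding promoter summits (61.6%, interval 60.5 to 62.7%). In the IDR list the shares were 41.8% (46 of 110, interval 32.5 to 51.6%) and 66.1% (1217 of 1841, interval 63.9 to 68.3%). The rule keeps ncRNA summits only away from protein-coding TSSs, and the part of this in the spread was not tested. Upstream of the TSS lay 404 ncRNA promoter summits (54.5%, interval 50.9 to 58.1%) and 4412 protein-coding promoter summits (60.4%, interval 59.2 to 61.5%). With a limit of 1000 bp in place of 500 bp, 688 of 1373 ncRNA promoter summits (50.1%) lay upstream, so the excess on that side was not kept.

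Stronger summits at ncRNA genes lay upstream more often. Of the 404 upstream summits 73 were in the IDR list (18.1%, interval 14.4 to 22.2%), against 37 of the 337 at or downstream of the TSS (10.98%, interval 7.85 to 14.8%), and the intervals overlap by less than 1 percentage point. Protein-coding promoters had the same order, with 30.2% upstream and 17.5% downstream. The median IDR summit lay 109.5 bp upstream at ncRNA genes and 108 bp upstream at protein-coding genes. In steps of about 100 bp the IDR share of ncRNA promoters was highest at 201 to 300 bp upstream (19 of 71, 26.8%) and lowest at 101 to 200 bp downstream (4 of 53, 7.55%), while that of protein-coding promoters was highest at 101 to 200 bp upstream (439 of 1165, 37.7%). Examples on the upstream side are CR31044 at 129 bp, CR44339 at 151 bp, CR46036 at 181 bp and asRNA CR44429 at 250 bp.

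At the 500 bp limit itself, the members just inside were CR46322 (rank 2642), CR44933 (rank 7598) and CR44799 (rank 14666). The summits just outside were at CR44619 (rank 157), CR45941 (rank 15346) and CR32160 (rank 24205). The summit at CR44619, 501 bp from its TSS and in the IDR list with a signal value of 833.3, would have been the seventh strongest member.

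**Figure D3:**
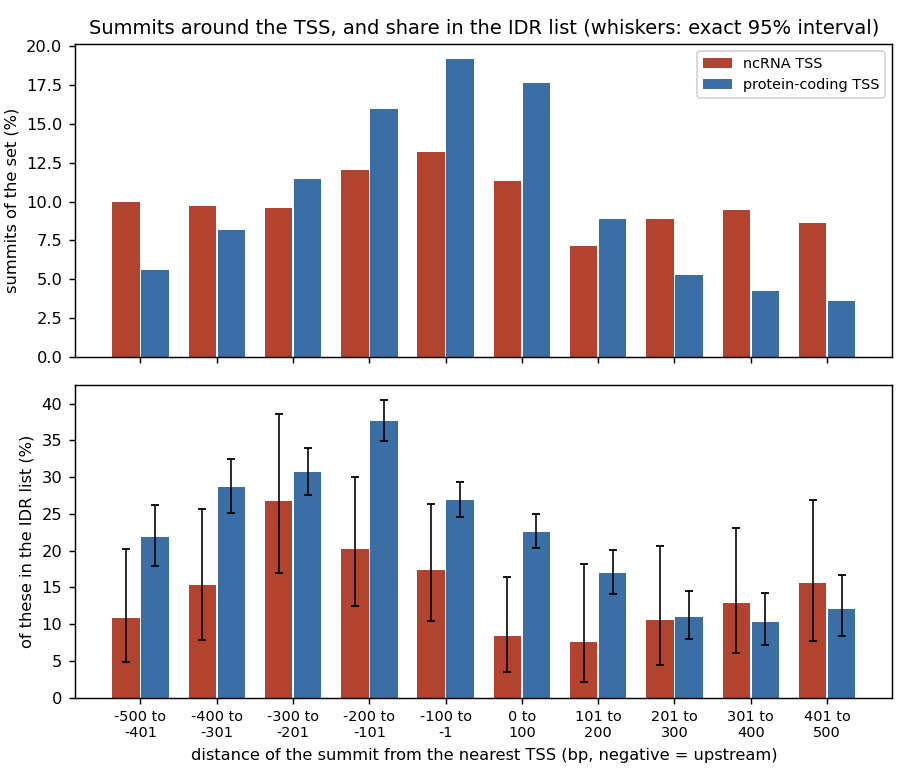
Summits by distance from the nearest TSS in steps of about 100 bp (negative is upstream), for ncRNA promoters beside protein-coding promoters. The upper panel gives the percentage of each set and the lower one the percentage of those in the IDR list, with exact 95% intervals as whiskers; the ncRNA set is flatter, and its IDR share peaks at 26.8% between 300 and 201 bp upstream.

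The genes themselves were mostly intergenic. Among the 596 ncRNA genes nearest to a member, 356 (59.7%) overlapped no protein-coding gene, 183 (30.7%) overlapped one on the opposite strand and 57 (9.56%) overlapped one on the same strand alone. Over all 3261 ncRNA genes these shares were 50.8%, 29.9% and 19.2%. The rule bars summits near protein-coding TSSs, and the part of this in the difference was not tested. The IDR share differed little by place: 64 of 449 summits at genes without overlap (14.3%), 33 of 224 on the opposite strand (14.7%) and 13 of 68 on the same strand (19.1%, interval 10.6 to 30.5%). By the summit's own position, 70 of 481 outside protein-coding genes (14.6%), 38 of 234 in introns (16.2%) and 2 of 26 in exons (7.69%, interval 0.946 to 25.1%) were in the IDR list. By chromosome arm the IDR share of members was highest on 2R (21.1%, interval 14.5 to 29.0%, against 14.8% of all peaks there) and X (19.7%, interval 11.5 to 30.5%, against 13.9%), and it was 14.4% on 2L against 14.8%, 12.3% on 3L against 13.5% and 11.9% on 3R against 14.9%. The intervals of these 5 arms overlap. On chromosome 4, 0 of 15 members were in the IDR list (interval 0 to 21.8%; 3 counts would be 20%), against 19 of 264 of all peaks there (7.20%).

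The words of housekeeping promoters were rarer at ncRNA promoter summits than at protein-coding ones. Word shares are of summits with the word within 100 bp on either strand. The words were sought around the summit and not the TSS, and ncRNA promoter summits lay farther from their TSS. Within 100 bp of the TSS lay 24.6% of them, against 36.8% of protein-coding promoter summits. The part of this in the word shares was not tested. The DNA replication-related element TATCGATA, a core promoter word of housekeeping genes, was at 3 of 741 ncRNA promoter summits (0.405%, interval 0.0836 to 1.18%), against 244 of 7309 protein-coding promoter summits (3.34%, interval 2.94 to 3.78%) and 0.419% of summits away from both. The M1BP word GGTCACAC, of the promoters of ribosomal protein and other housekeeping genes, was at 6 (0.810%, interval 0.298 to 1.75%), against 196 at protein-coding promoters (2.68%, interval 2.32 to 3.08%) and 0.346% away from both. Neither was at any of the 110 IDR members (interval 0 to 3.30%; 3 counts would be 2.73%). At IDR summits of protein-coding promoters the replication-related element was at 4.18%, above that interval, and the M1BP word at 2.88%, within it, so for the M1BP word a difference was not detectable among so few IDR members. The BEAF-32 word CGATA, which the replication-related element contains, was at 149 ncRNA promoter summits (20.1%) against 2160 at protein-coding promoters (29.6%) and 21.8% away from both. In the IDR list it was at 15 of 110 (13.6%, interval 7.84 to 21.5%) against 535 of 1841 (29.1%, interval 26.99 to 31.2%).

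The TATA word TATAAA was as common at ncRNA promoters as elsewhere, 199 of 741 (26.9%) against 26.6% of protein-coding promoters and 26.9% of summits away from both. In the IDR list it was at 45 of 110 ncRNA promoter summits (40.9%, interval 31.6 to 50.7%), against 33.5% of protein-coding promoter summits (interval 31.4 to 35.7%) and 33.6% of those away from both, whose intervals overlap with it. Members outside the IDR list had it at 24.4% (interval 21.1 to 28.0%), and windows 1000 bp to the left and right of the IDR members at 19.1% and 27.3%. The median GC content of the windows was 34.6% at the IDR members, 41.3% at all members, 37.3% at IDR summits of protein-coding promoters and 36.8% at all IDR summits, and the part of base composition in the TATAAA share was not tested. Placed where a TATA box works, 20 to 40 bp upstream of the TSS and on its strand, TATAAA was found at 7 of the 103 TSSs of IDR members (6.80%, interval 2.78 to 13.5%), 23 of the 607 TSSs of all members (3.79%), 2.63% of all ncRNA TSSs and 6.80% of all protein-coding TSSs. Of the strong members shown above, CR31840, CR46036 and CR42657 have the word in the window.

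Of the remaining words, GAGAG was at 177 summits (23.9%, interval 20.9 to 27.1%), against 29.5% at protein-coding promoters (interval 28.5 to 30.6%) and 23.5% away from both. The Odd word ACAGTAGC was at 3 (0.405%, interval 0.0836 to 1.18%), against 0.438% at protein-coding promoters and 0.580% of all peaks. The single IDR member that holds the Odd word is CR44730, an unstudied long ncRNA, with rank 4174 in the pool, 4463 in replicate 1 and 4356 in replicate 2. The Zelda word CAGGTAG was at 6 summits (0.810%) against 1.23% of all peaks, and the E-box CACGTG at 18 (2.43%) against 2.35% of all peaks. At least 1 of the 8 words was at 435 of 741 summits (58.7%) against 61.6% of all peaks.

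**Figure D4:**
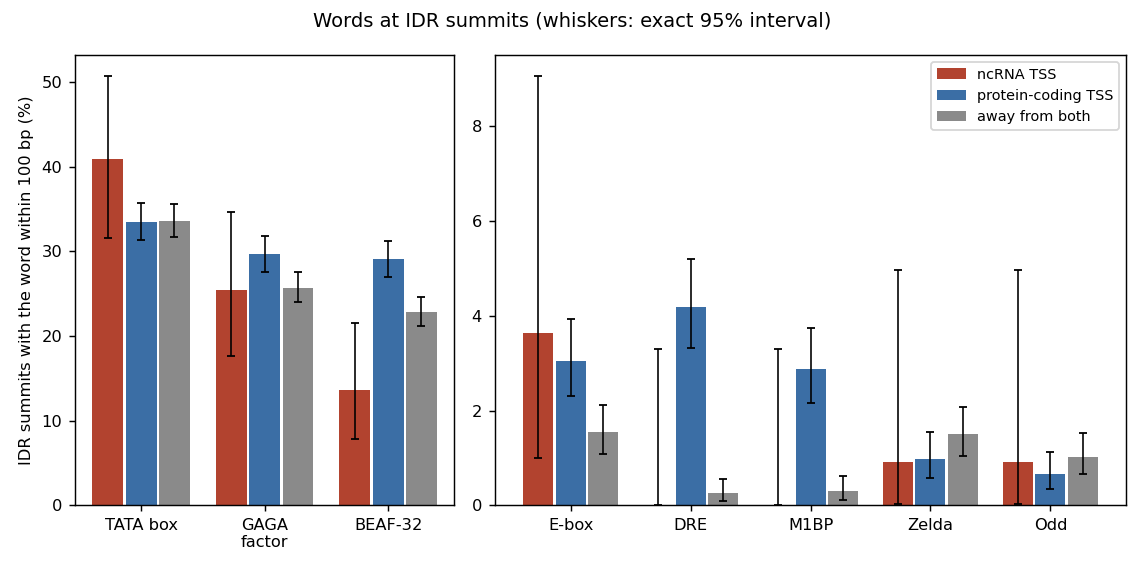
Percentage of IDR summits with each word within 100 bp, on either strand, for 110 ncRNA promoters, 1841 protein-coding promoters and 2340 summits away from both; whiskers are exact 95% intervals and the right panel has its own scale. The replication-related element (DRE) and the M1BP word have no ncRNA bar because none of the 110 held them.

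The replicates covered ncRNA promoter summits as often as peaks at large. Of the 741, 454 (61.3%, interval 57.7 to 64.8%) lay under a peak of both replicates, against 60.8% of all peaks, 71.5% at protein-coding TSSs and 57.2% away from both. A further 137 were covered in replicate 1 alone, 123 in replicate 2 alone and 27 in neither. Under a peak among the strongest 4291 of both replicates lay 98 (13.2%, interval 10.9 to 15.9%), against 11.7% of all peaks. Of the 110 IDR members, 108 were covered in both replicates (98.2%) and 1 in each alone, and of all 4291 IDR peaks 4198 were covered in both (97.8%). The IDR member covered in replicate 2 alone was at CR43411, with its summit in an intron of osp. This summit lay 1897 bp from a TSS of Adh, which encodes alcohol dehydrogenase. It had rank 606 in the pool and rank 1021 in replicate 2, with no peak over the summit in replicate 1.

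Over the 454 summits covered in both replicates, Spearman's rho of the 2 signal values was 0.726, against 0.701 over 18233 of all peaks, and over the 108 IDR members it was 0.752, against 0.713 over 4198 of all IDR peaks; these describe sites of the same 2 libraries. For the 108, the larger rank was at the median 1.49 times the smaller and more than 2 times it at 21, and each replicate gave the stronger rank at 54. The smallest rank differences were 1 at CR44339, 1 at CR31044 and 6 at CR31840. The largest were 8162 at the antisense RNA CR46484 near Pcif1 (rank 1364 in replicate 1, 9526 in replicate 2), 6484 at CR45531 (2483 in replicate 1, 8967 in replicate 2) and 5275 at CR45354 (7983 in replicate 1, 2708 in replicate 2). A replicate peak can cover several pooled summits: among IDR members, 15 in replicate 1 and 18 in replicate 2 shared their covering peak with another member, such as the second summit of CR46036, with rank 1987 in replicate 1 but the gene's rank of 44 in replicate 2.

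**Figure D5:**
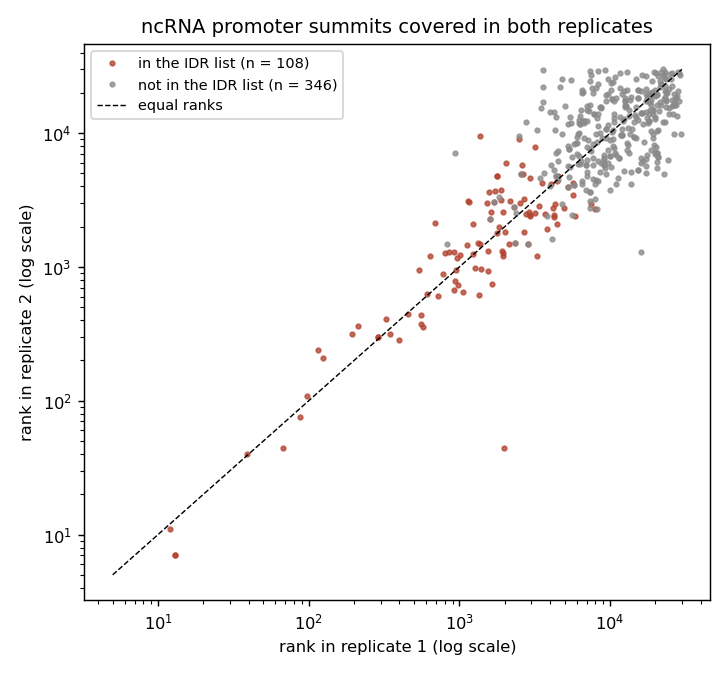
Rank of the covering peak in replicate 1 against replicate 2 (both log scales, 1 is the strongest) for the 454 ncRNA promoter summits covered in both, 108 of them in the IDR list. The strongest members lie along the dashed line of equal ranks, the weaker ones scatter around it, and the single point far below it is the second summit of CR46036.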

How the data were processed

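Chromatin was immunoprecipitated with an anti-GFP antibody from embryos carrying odd-eGFP, in 2 biological replicates of 1 group. Per text records deposited with the libraries, alignments of 1 replicate and a control gave that replicate's list, alignments of both gave the pooled list, and the IDR list was derived from these 3. For the caller, aligner, read filters and IDR threshold, the sources used here say nothing; the control was not analysed here. The 4 lists on dm6 were used and the dm3 lists were not. Peaks were ranked by their deposited signal value, the authors' score of a peak's strength. It grows with sequencing depth, which is unknown here, so replicates were compared by rank. The summit came from another number of the deposited record, its offset from the start of the peak.

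Summits were assigned to transcription start sites (TSSs) of the Ensembl release 115 annotation on the NCBI Release 6 sequence, whose arm lengths were checked against the peaks. A replicate covered a pooled summit where one of its peaks held that position, and its strongest covering peak gave the rank. Distances are signed on the strand of the nearest ncRNA gene. The 8 words were searched on both strands within 100 bp of each summit and in windows 1000 bp to each side. Intervals are exact 95% Clopper-Pearson binomial intervals and cover counting error only, and a share of 0 is given with the limit that 3 counts would allow. Scripts in Python 3.11.15 (pandas 2.3.3, scipy 1.17.1) were tested on simulated summits.

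With 1 group of 2 replicates no comparison between conditions exists. Peaks of 1 pooled list are not independent replicates of a condition, so no p-value was computed, and shares are set beside those of all peaks. The members, lists, words and alternatives were chosen with earlier results of these data known. Genes are named by rule: the 15 strongest members, every ncRNA gene with at least 3 members, and a list of well-known RNAs with or without a member. Also named are the 3 IDR members with the smallest and the 3 with the largest rank difference between replicates. The protein-coding neighbours of named members and the summits at the 500 bp limit are named too. Host genes of miRNAs and snoRNAs, the members of the smaller gene classes and CR43411, CR44730 and CR45352 were named after their values were seen.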

Additional observations from a re-analysis of the deposited data

How the results depend on the processing

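No paired analysis was possible because the series has 1 group. With the list of 1 replicate in place of the pooled one, the number of members was 730 and 743. The list of 1 replicate has no IDR filter, so its strongest 4291 peaks stood in for the IDR list. The share of members among them was 15.2% to 15.9%. The share covered in both replicates was 61.1% to 62.7%, but a summit of 1 replicate's list lies under its own peak. That share thus measures cover by the other replicate and is unlike the pooled one. The upstream share was 54.0% to 54.5%. The share of members at genes overlapping no protein-coding gene was 58.9% to 60.3%, and the share with any of the 8 words 59.9% to 61.2%. The median rank was 13982.5 with replicate 2 alone and 15245 with replicate 1 alone. Moving the ncRNA limit to 250 bp left 398 members, of which 65.1% were covered in both replicates, and moving it to 1000 bp gave 1373 members, of which 50.1% lay upstream. Counting only gene 5' ends as TSSs put 56.4% of members at genes that overlap no protein-coding gene, and asking for the overlap at the TSS alone put 64.4% there. Asking for replicate summits within 100 bp gave 46.2% covered in both, asking for the strongest peaks of each gave 13.2%, and keeping the stronger part of the IDR list gave an IDR share of 9.04%. Any of the 8 words was found at 36.4% of members within 50 bp, 81.9% within 200 bp and 62.7% of IDR members. The changes with the width of the word window, the distance of replicate summits and the shorter lists of strongest peaks follow from how these were set; the cause of the other changes, the share of IDR members with a word included, was not tested. Under each of the 8 alternatives to the rule, the ncRNA promoter IDR share lay between those of protein-coding promoters and summits away from both. These include each replicate alone, with its strongest 4291 peaks in place of the IDR list. Alternatives for the rank, the place of the summits, the place of the gene and the words were in part added after seeing the data. Depth is unknown, so a summit missing from a list is one not called there.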

Other observations

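Summits at RNA genes that did not meet the rule included the following. The snRNA gene 7SKa, whose product holds the elongation factor P-TEFb inactive, had an IDR summit of rank 863 at 236 bp from its TSS, while the best summit at 7SKb had rank 23658. The snoRNA host Uhg2 had 2 summits within 500 bp, both in the IDR list and the stronger of rank 1130, which also lay within 500 bp of a TSS of Bka. Uhg8 had 1 IDR summit, of rank 2239, within 500 bp of a TSS of CG5199. Of 1085 summits within 500 bp of an ncRNA TSS, 344 also lay within 500 bp of a protein-coding TSS, and 90 of these 344 were in the IDR list.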
